A study of Mus musculus with 4 samples.

Results

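The hemidesmosome genes Col17a1, Itga6, Itgb4, Plec, Dst and Cd151 were followed from their summed level down to single transcripts. They are 6 of the 45803 gene symbols of the deposited table, taken by their symbols, and they hold 68 transcript rows. The RNA came from epidermal keratinocytes of newborn mice (postnatal day 0) and was sequenced in 2 libraries of each genotype. The cKO animals had the genotype K14Cre,Mettl14F/F, with both Mettl14 alleles floxed, and the Ctrl animals K14Cre,Mettl14F/+, with only a single floxed allele. Both groups thus carried K14Cre, in which the keratin 14 promoter drives Cre recombinase in basal keratinocytes, and the Ctrl animals were heterozygous rather than untouched. Mettl14 encodes a subunit of the complex that writes N6-methyladenosine (m6A), a methyl mark on adenosines of RNA. The labels do not say whether the libraries came from separate animals, so every p-value reflects how far libraries of a group lie apart, which could be technical spread alone.

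Hemidesmosomes are the rivets that hold basal keratinocytes on the basement membrane. Outside the cell, the integrin α6β4 (Itga6 and Itgb4) binds laminin-332 and collagen XVII (Col17a1) reaches into the basement membrane, while the tetraspanin Cd151 sits beside the integrin in the membrane. Inside the cell, the plakins plectin (Plec) and BPAG1e, the epithelial product of Dst, tie these receptors to the keratin 5 and keratin 14 filaments. Dst and Plec are very long genes with several starts: Dst also encodes large neuronal and muscle forms, and the alternative first exons of Plec send plectin to different places in the cell. Loss of most of these proteins in humans or mice causes blistering of the skin.

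The isoforms compared below differ in short stretches of sequence, taken from GENCODE M21 transcripts (GRCm38) and shown because the values that follow count these forms separately. The exon of 111 bases that Col17a1-201 has and Col17a1-202 lacks is exon 48, at chr19:47650048-47650158 on the minus strand, with all of its bases in capitals.
Col17a1 exon 48: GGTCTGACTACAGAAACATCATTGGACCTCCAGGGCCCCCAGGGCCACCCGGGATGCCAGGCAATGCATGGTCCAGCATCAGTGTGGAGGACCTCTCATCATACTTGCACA
Itga6-201 and Itga6-202 share their coding sequence up to the lower-case bases and then end differently, in capitals, at chr2:71853539-71853641 and chr2:71855859-71856015 on the plus strand. The first is the α6A cytoplasmic end and the second the α6B end.
Itga6-201: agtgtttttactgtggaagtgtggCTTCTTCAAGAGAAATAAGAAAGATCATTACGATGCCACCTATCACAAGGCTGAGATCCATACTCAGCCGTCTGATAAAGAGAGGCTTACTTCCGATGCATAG
Itga6-202: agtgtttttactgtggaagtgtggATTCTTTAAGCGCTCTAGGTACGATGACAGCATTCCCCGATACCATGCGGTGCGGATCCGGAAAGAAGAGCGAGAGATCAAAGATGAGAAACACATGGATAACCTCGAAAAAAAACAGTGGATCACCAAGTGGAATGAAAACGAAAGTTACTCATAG
The first coding exons of Plec, on the minus strand, give each form its own amino terminus, with the start codon in capitals. Plec-201 (chr15:76195424-76195535) carries the exon of plectin 1a, the form found in hemidesmosomes, and Plec-218 (chr15:76199549-76199660) that of plectin 1b, a form bound to mitochondria. Plec-204 starts at chr15:76197980-76198112.
Plec-201: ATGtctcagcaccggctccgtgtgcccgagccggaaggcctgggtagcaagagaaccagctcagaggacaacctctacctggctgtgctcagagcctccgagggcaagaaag
Plec-204: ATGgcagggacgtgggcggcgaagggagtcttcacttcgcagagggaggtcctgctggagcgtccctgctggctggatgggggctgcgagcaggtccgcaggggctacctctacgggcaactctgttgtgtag
Plec-218: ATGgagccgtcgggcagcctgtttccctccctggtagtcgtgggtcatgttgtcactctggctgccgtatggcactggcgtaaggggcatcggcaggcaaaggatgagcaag
The first coding exons of Dst, on the plus strand and with the start codon in capitals, separate the epithelial start of Dst-213, the BPAG1e form (chr1:34160330-34160496), from the upstream start of the long form Dst-202 (chr1:34011825-34011915).
Dst-213: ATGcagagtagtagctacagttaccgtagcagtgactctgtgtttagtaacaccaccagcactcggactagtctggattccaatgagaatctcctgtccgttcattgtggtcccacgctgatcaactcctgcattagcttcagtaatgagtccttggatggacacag
Dst-202: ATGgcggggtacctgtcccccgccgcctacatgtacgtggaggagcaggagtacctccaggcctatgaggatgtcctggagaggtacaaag

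Summed over transcripts, 5 of the 6 genes were lower and 1, Cd151, was higher in cKO than in Ctrl, and none passed the test. Levels are given in FPKM, fragments scaled by transcript length and library depth, the unit the deposited values were taken to have. Differences are on the log2(FPKM + 1) scale, cKO minus Ctrl, from limma's moderated test over the 13817 genes that reached 1 FPKM in 2 or more libraries, with Benjamini-Hochberg adjustment at 0.05. All 6 genes passed that filter. The test called 0 of the 6 genes, beside 0% of all genes tested, and 686 genes had an unadjusted p under 0.05. Dst was the only member among these, and every member had an adjusted p of 0.959. The median difference of the 6 was -0.37, against -0.03 over all genes tested, and 54.5% of all genes were lower in cKO. An exact two-sided permutation test of 2 against 2 libraries cannot give a p below 0.333. With single libraries left out, limma called 71 genes without cKO 1, 9 without cKO 2, 14 without Ctrl 1 and 37 without Ctrl 2, and none of the 6 genes was among them.

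The libraries had implied depths of 16889936 and 25670383 fragments in cKO 1 and cKO 2, and of 17365369 and 23402384 in Ctrl 1 and Ctrl 2. These gave between 519 and 20785 implied fragments per member and library. Mettl14 itself was listed at 5.89 and 3.79 FPKM in cKO libraries 1 and 2, against 7.00 and 6.40 in Ctrl (log2 difference -0.42 ± 0.26 SE; -0.68 without cKO 1 and -0.16 without cKO 2). Mettl14-201, which has 11 exons and the highest mean of its transcripts, measured 2.21 and 2.63 FPKM in cKO, against 4.82 and 5.15 FPKM in Ctrl (log2 difference -0.81 ± 0.30 SE). Basal keratinocyte markers were abundant in every library, with Krt14, the partner of keratin 5 in basal cells, at 1435.0 and 2194.9 FPKM in cKO and 2175.6 and 2549.5 in Ctrl. Of the suprabasal markers, Krt1 was listed at 0 in all 4 libraries while its partner Krt10 reached 12142.0 and 6216.7 FPKM in cKO and 15341.6 and 5382.2 in Ctrl. Markers of leukocytes and melanocytes were also present, and are given with the partner genes. These are bulk libraries, in which fewer cells of a type and less RNA per cell cannot be told apart.

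**Figure D1:**
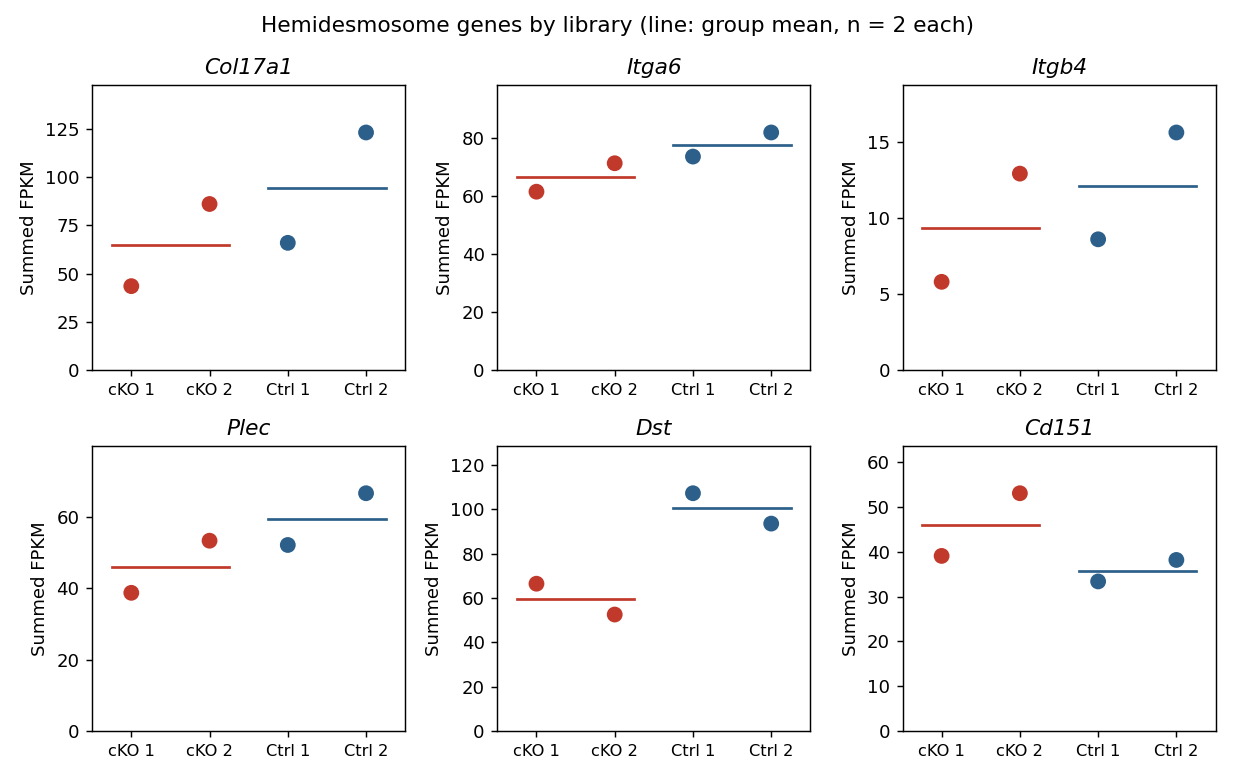
Summed FPKM of each hemidesmosome gene (vertical axis, starting at 0) in cKO libraries 1 and 2 (red) and Ctrl libraries 1 and 2 (blue), with lines at the group means (n = 2 each). The cKO and Ctrl points do not overlap for Dst (66.4 and 52.5 against 107.2 and 93.5), Itga6 and Cd151, while for Col17a1, Itgb4 and Plec the library cKO 2 lies above Ctrl 1. Over all genes tested, 16.6% were lower and 16.2% higher in cKO without overlap.

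Dst had the lowest difference of the 6 genes. Dst (ENSMUSG00000026131, GRCm38 chr1:33908225-34308661, plus strand) measured 66.4 and 52.5 FPKM in cKO 1 and cKO 2, against 107.2 and 93.5 in Ctrl 1 and Ctrl 2. Both cKO libraries lay below both Ctrl libraries, as they did for 16.6% of all genes tested. The means were 59.4 ± 9.86 FPKM in cKO and 100.4 ± 9.74 in Ctrl (SD, n = 2 each), a ratio of 0.592. The log2 difference was -0.75 ± 0.24 (SE; limma adjusted p = 0.959), and 1.05% of all genes tested had a lower one. With 1 library left out it lay between -0.92 (without cKO 1) and -0.59 (without cKO 2), so no single library set its direction or size.

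Most Dst RNA was the epithelial form. Dst-213, with 24 exons, ends early in a coding sequence whose last 4604 bases are not shared with the longer Dst-215, and it encodes BPAG1e. It measured 43.1 and 37.6 FPKM in cKO, against 69.0 and 58.5 in Ctrl (log2 difference -0.64 ± 0.25 SE; limma adjusted p = 1.0). Both cKO libraries were the lower ones, as for 16.2% of all transcripts tested. As a share of all Dst FPKM, however, Dst-213 took 64.9% and 71.7% in cKO, against 64.3% and 62.6% in Ctrl, and the difference of its share was 0.11 ± 0.10 on the log2 scale (SE; limma adjusted p = 1.0), with 0.18 without cKO 1 and 0.036 without cKO 2. Both cKO shares were above both Ctrl shares, as for 14.3% of all shares tested, so the form was lower in level but not in its share of the gene.

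The remaining Dst forms were scarcer and mostly also lower. Dst-215 (84 exons), which begins at the epithelial start and runs on into the long plakin body, measured 6.21 and 4.90 FPKM in cKO, against 6.92 and 9.90 in Ctrl (log2 difference -0.51 ± 0.30 SE; -0.28 without Ctrl 2). Dst-217, an incomplete model from the same start, measured 4.55 and 3.57 FPKM in cKO, against 8.35 and 6.87 in Ctrl (log2 difference -0.77 ± 0.29 SE; limma adjusted p = 1.0). Both forms were lower in cKO without overlap, as were 16.2% of all transcripts tested. The share of Dst-217 was 6.85% and 6.81% in cKO, against 7.79% and 7.35% in Ctrl, and its log2 share difference of -0.02 ± 0.33 (SE) lay well inside its error. The 10 rows that begin upstream of the epithelial start, those of the neuronal and muscle forms and their fragments, summed to 3.06 and 1.64 FPKM in cKO, against 5.66 and 2.11 in Ctrl. They overlapped between the groups and made up 4.61% and 3.13% of Dst FPKM in cKO, against 5.28% and 2.26% in Ctrl. Fragments that lie inside or downstream of the epithelial form, 6 rows, summed to 7.70 and 3.67 FPKM in cKO, against 13.2 and 8.31 in Ctrl.

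A further Dst row stood out by its near absence in cKO. ENSMUST00000182513, which the annotation used here does not hold, was listed at 0 and 0.03 FPKM in cKO, against 2.08 and 4.43 in Ctrl. Its log2 difference of -2.01 ± 0.41 (SE) was the lowest of the 28 member transcripts tested, and it did not pass limma's test (adjusted p = 0.923). Its structure is not known here, so no form is assigned to it. The other row outside the annotation, ENSMUST00000194011, measured 1.82 and 1.03 FPKM in cKO, against 2.14 and 3.37 in Ctrl. Of the 21 Dst rows, 1 was listed at 0 in all libraries and 8 were tested. All 8 were lower in cKO, 6 without overlap, beside 16.2% of all transcripts tested, and 0 were called. The opposite strand of the Dst gene also holds Gm26788 (chr1:34165856-34178446), a noncoding transcript inside the span of the epithelial form, at 6.83 and 1.94 FPKM in cKO and 12.9 and 5.94 in Ctrl. No source states whether the libraries were stranded, and without strand a read shared by Dst and Gm26788 cannot be assigned where they overlap, and the part of such reads in the Dst values was not tested.

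A promoter window next to the epithelial start of Dst is shown because most Dst FPKM was listed for forms with that start. It is a RefSeq window of 300 bases (GRCm38.p6, chr1:34160010-34160309, plus strand). The window ends upstream of the first base of Dst-213, chr1:34160330, and does not hold it. The letters TGANTCA, the AP-1 site, and TATAAA, the TATA box core, were searched on both strands and neither was found in it. Across 32851 promoter windows of the same length, 7.81% held TGANTCA and 13.6% held TATAAA. The match to the RefSeq table was found for Dst, Cd151 and Col17a1. The Col17a1 window held TATAAA in 2 places, and the windows of Cd151 held neither motif.
Dst epithelial promoter: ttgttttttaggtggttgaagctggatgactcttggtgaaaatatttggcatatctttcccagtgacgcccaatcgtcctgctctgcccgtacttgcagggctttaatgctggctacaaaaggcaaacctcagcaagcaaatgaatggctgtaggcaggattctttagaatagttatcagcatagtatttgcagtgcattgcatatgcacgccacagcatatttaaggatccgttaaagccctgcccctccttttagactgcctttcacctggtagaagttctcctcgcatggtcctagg

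**Figure D2:**
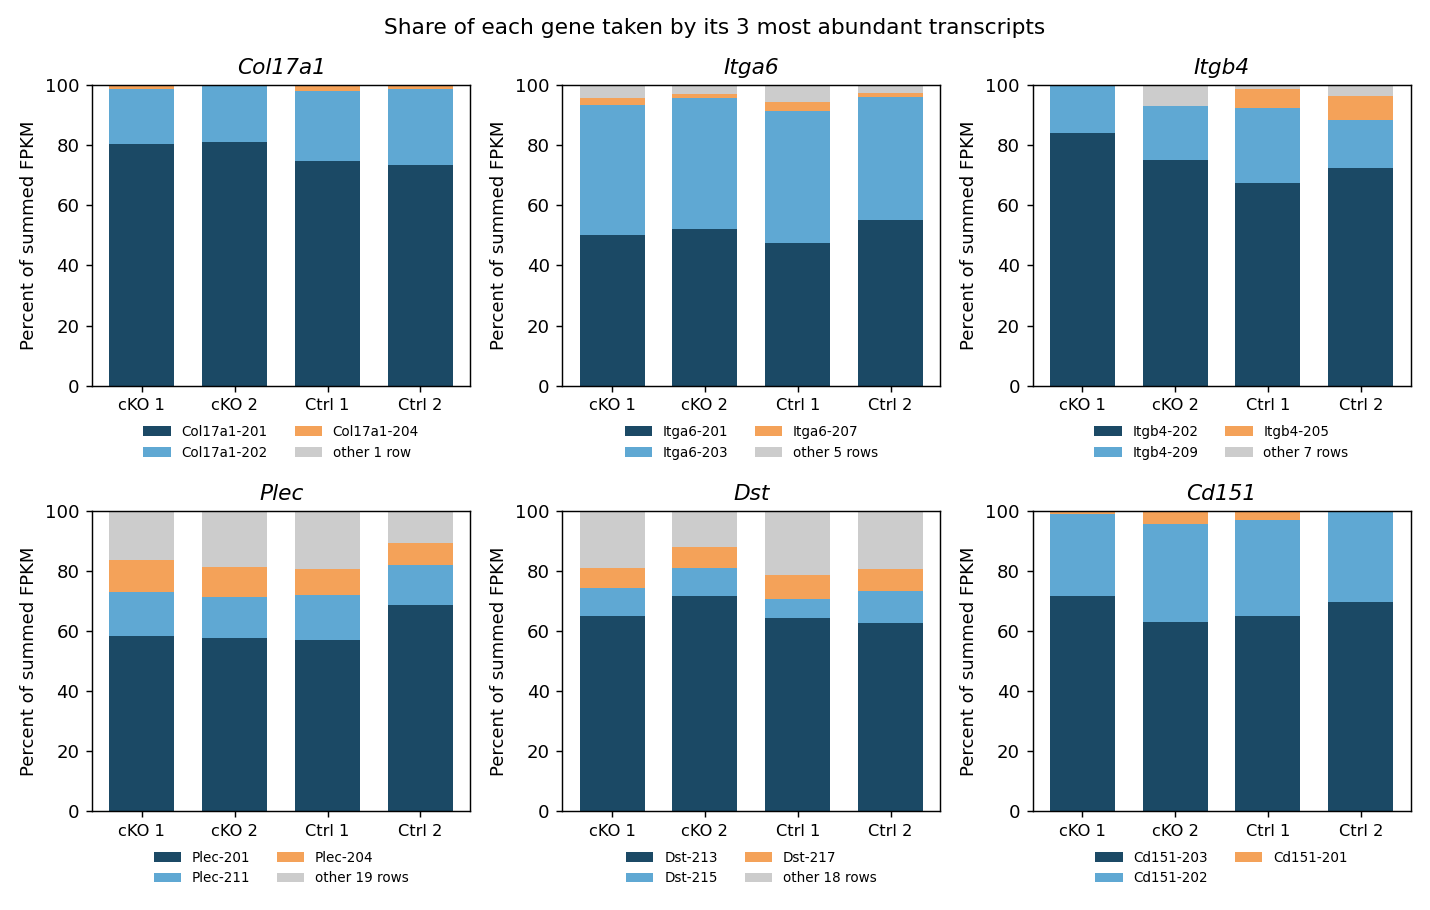
Percent of each gene's summed FPKM (vertical axis) taken by its 3 most abundant transcripts and by the remaining rows, in cKO libraries 1 and 2 and then Ctrl libraries 1 and 2. Dst-213 takes 64.9% and 71.7% in cKO against 64.3% and 62.6% in Ctrl, and Col17a1-201 takes 80.5% and 81.1% in cKO against 74.6% and 73.4% in Ctrl.

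Plec, the other plakin of the hemidesmosome, was lower by less, and its libraries overlapped. Plec (ENSMUSG00000022565, chr15:76170974-76232574, minus strand) measured 38.7 and 53.3 FPKM in cKO, against 52.1 and 66.6 in Ctrl. The library cKO 2 lay just above Ctrl 1. The means were 46.0 ± 10.3 FPKM in cKO and 59.4 ± 10.2 in Ctrl (SD, n = 2 each), with a log2 difference of -0.37 ± 0.26 (SE; limma adjusted p = 0.959). The size depended on single libraries: it was -0.14 without cKO 1, -0.59 without cKO 2, -0.54 without Ctrl 1 and -0.20 without Ctrl 2. Plec has the longest main transcript of the 6 genes, 15001 bases, and removing the trend of the difference with transcript length left -0.15.

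Plectin 1a made up most of the Plec RNA. Plec-201, whose first exon is shown above, measured 22.6 and 30.8 FPKM in cKO, against 29.7 and 45.6 in Ctrl (log2 difference -0.47 ± 0.31 SE; limma adjusted p = 1.0). The difference was -0.25 without cKO 1, -0.77 without Ctrl 1 and -0.17 without Ctrl 2. It took 58.3% and 57.8% of Plec FPKM in cKO, against 57.0% and 68.5% in Ctrl, shares that overlapped, with Ctrl 2 standing above the other libraries. The incomplete model Plec-211 measured 5.63 and 7.18 FPKM in cKO, against 7.80 and 8.97 in Ctrl (log2 difference -0.35 ± 0.27 SE; -0.20 without cKO 1). Plec-204, from the next start upstream, measured 4.09 and 5.38 FPKM in cKO, against 4.51 and 4.72 in Ctrl, a log2 difference of 0.02 ± 0.29 (SE) that turned to -0.14 without cKO 2 and to -0.03 with equal column sums. The share of Plec-204 was 10.6% and 10.1% in cKO, against 8.65% and 7.09% in Ctrl. Its cKO shares were the higher ones without overlap, as for 14.3% of all shares tested, and the share difference of 0.39 ± 0.33 (SE; 0.24 without Ctrl 2) was not called (limma adjusted p = 1.0).

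Every other Plec start stayed low. The plectin 1b start, 3 rows of which 2 were above 0, summed to 3.62 and 2.34 FPKM in cKO, against 3.06 and 1.77 in Ctrl. Plec-207, which begins further upstream with the exon of plectin 1, measured 1.48 and 1.36 FPKM in cKO, against 1.72 and 1.47 in Ctrl. Plec-206, from a start far upstream, was higher in the libraries numbered 2 of both genotypes, listed at 0 and 3.33 FPKM in cKO, against 0.14 and 2.03 in Ctrl. Full-length Plec forms differ by little more than a first exon, and how the authors divided shared reads between them is not given. Of the 22 Plec rows, 10 were listed at 0 in every library and 7 were tested, 4 lower and 3 higher in cKO, with 0 called. Parp10 overlaps the upstream end of Plec on the same strand, and was listed at 8.64 and 10.2 FPKM in cKO and 11.9 and 12.8 in Ctrl.

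Col17a1 varied more between libraries of the same genotype than between genotypes. Col17a1 (ENSMUSG00000025064, chr19:47646344-47692094, minus strand) measured 43.5 and 86.0 FPKM in cKO, against 65.9 and 123 in Ctrl. The libraries numbered 2 were the higher of each genotype, and the groups overlapped. The means were 64.7 ± 30.1 FPKM in cKO and 94.5 ± 40.4 in Ctrl (SD, n = 2 each). The log2 difference was -0.55 ± 0.44 (SE; limma adjusted p = 0.959). It was -0.07 without cKO 1, -1.03 without cKO 2, -0.996 without Ctrl 1 and -0.10 without Ctrl 2.

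The listed proportion of the 2 coding forms of Col17a1 differed between the groups, but the difference did not pass the test. Col17a1-201, the full form with 54 exons, measured 34.98 and 69.7 FPKM in cKO, against 49.2 and 90.3 in Ctrl (log2 difference -0.42 ± 0.43 SE), and its difference was 0.06 without cKO 1 and 0.01 without Ctrl 2. Col17a1-202, which lacks exon 48, measured 7.89 and 16.2 FPKM in cKO, against 15.5 and 31.1 in Ctrl (log2 difference -0.89 ± 0.44 SE; limma adjusted p = 1.0), with a range of -1.37 (without Ctrl 1) to -0.41 (without Ctrl 2). The ratio of the form without exon 48 to the form with it was 0.226 and 0.233 in cKO, against 0.315 and 0.344 in Ctrl. Both cKO ratios were below both Ctrl ratios, although the levels behind them differed about 2-fold between the libraries of a genotype. Col17a1-202 took 18.2% and 18.9% of Col17a1 FPKM in cKO, against 23.5% and 25.3% in Ctrl. Both cKO shares were below both Ctrl shares, as for 15.9% of all shares tested, and the share difference of -0.34 ± 0.28 (SE) was not called (limma adjusted p = 1.0). It lay between -0.38 and -0.31 with 1 library left out. The third row, the noncoding Col17a1-204, measured 0.59 and 0 FPKM in cKO, against 1.23 and 1.61 in Ctrl, and the fourth was listed at 0 throughout.

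Itga6 and Itgb4 encode the chains of a single heterodimer and were at very different RNA levels. Itga6 (ENSMUSG00000027111, chr2:71745616-71858416, plus strand) measured 61.5 and 71.3 FPKM in cKO, against 73.6 and 81.9 in Ctrl. The means were 66.4 ± 6.99 FPKM in cKO and 77.8 ± 5.87 in Ctrl (SD, n = 2 each). The cKO libraries were below the Ctrl libraries by a narrow gap, as for 16.6% of all genes tested. The log2 difference of Itga6 was -0.23 ± 0.22 (SE; limma adjusted p = 0.959), with -0.12 without cKO 1 and -0.15 without Ctrl 2. Itgb4 (ENSMUSG00000020758, chr11:115974709-116008412, plus strand) measured 5.80 and 12.9 FPKM in cKO, against 8.59 and 15.6 in Ctrl, and the libraries numbered 2 were again the higher of each genotype. The means were 9.37 ± 5.05 FPKM in cKO and 12.1 ± 4.94 in Ctrl (SD, n = 2 each). The log2 difference of Itgb4 was -0.37 ± 0.43 (SE; limma adjusted p = 0.959). With 1 library left out, it was 0.14 without cKO 1, 0.02 without Ctrl 2, -0.89 without cKO 2 and -0.77 without Ctrl 1. Between same-numbered libraries, which the labels do not pair, the Itgb4 difference was -0.50 and -0.25. On the per-length scale, summed Itga6 was 10.6 and 5.51 times Itgb4 in cKO, against 8.57 and 5.26 times in Ctrl. The ratio differed by library number within each genotype, and the groups overlapped.

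Of the 2 complete coding forms of Itga6, the α6A form was by far the more abundant. Itga6-201, the α6A form, measured 30.8 and 37.3 FPKM in cKO, against 34.9 and 45.0 in Ctrl (log2 difference -0.22 ± 0.26 SE; -0.087 without cKO 1, -0.36 without cKO 2, -0.40 without Ctrl 1 and -0.042 without Ctrl 2). It took 50.1% and 52.2% of Itga6 FPKM in cKO, against 47.4% and 55.0% in Ctrl. Itga6-202, the α6B form, measured 1.41 and 0.99 FPKM in cKO, against 1.23 and 1.23 in Ctrl. The ratio of α6B to α6A was 0.0458 and 0.0266 in cKO, against 0.0352 and 0.0273 in Ctrl, and the groups overlapped. Much of the summed level came from Itga6-203, a noncoding model of 3 exons at the 3′ end of the gene, with 26.5 and 31.0 FPKM in cKO, against 32.4 and 33.7 in Ctrl (log2 difference -0.20 ± 0.23 SE; -0.089 without cKO 1 and -0.31 without cKO 2). The span of Itga6-203 (chr2:71849029-71858416) covers both coding ends, and this model was assigned to neither form. The incomplete model Itga6-207 measured 1.44 and 1.03 FPKM in cKO, against 2.07 and 0.93 in Ctrl. Its log2 difference of -0.13 ± 0.39 (SE) turned to 0.21 without Ctrl 1. Of 8 rows, 5 were tested, all lower in cKO, and 0 were called.

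Itgb4 RNA was mostly the form without the extra exon of 195 bases that Itgb4-203 and Itgb4-205 carry in their cytoplasmic part. Itgb4-202 measured 4.87 and 9.71 FPKM in cKO, against 5.80 and 11.3 in Ctrl (log2 difference -0.21 ± 0.42 SE; 0.23 without cKO 1 and 0.22 without Ctrl 2). It took 84.0% and 75.0% of Itgb4 FPKM in cKO, against 67.5% and 72.5% in Ctrl, and the log2 share difference of 0.17 ± 0.09 (SE; 0.083 without cKO 1) was not called (limma adjusted p = 1.0). The noncoding Itgb4-209 measured 0.93 and 2.31 FPKM in cKO, against 2.12 and 2.47 in Ctrl, with a log2 difference of -0.38 ± 0.39 (SE) that came to 0.01 without cKO 1. Itgb4-205, too low to be tested, was listed at 0 and 0.01 FPKM in cKO, against 0.56 and 1.25 in Ctrl. The 3 rows from the same start, the most upstream of the coding forms, summed to 0 and 0.49 FPKM in cKO, against 0.56 and 1.70 in Ctrl, beside 4.87 and 9.89 in cKO and 5.91 and 11.3 in Ctrl for the 2 rows of the downstream start. The cKO libraries were thus the lower ones at the upstream start, at levels of 1.70 FPKM or less. Of the 10 Itgb4 rows, 4 were listed at 0 in every library, and 2 were tested.

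Cd151 was the member with the opposite sign. Cd151 (ENSMUSG00000025510, chr7:141467392-141471473, plus strand) measured 39.1 and 53.1 FPKM in cKO, against 33.4 and 38.2 in Ctrl. Both cKO libraries lay above both Ctrl libraries, by a gap of less than 1 FPKM, as did 16.2% of all genes tested. The means were 46.1 ± 9.87 FPKM in cKO and 35.8 ± 3.43 in Ctrl (SD, n = 2 each). The log2 difference was 0.34 ± 0.24 (SE; limma adjusted p = 0.959), with 0.13 without cKO 2, 0.25 without Ctrl 1 and 0.56 without cKO 1. All 3 annotated transcripts have coding sequences of the same length, 759 bases. Cd151-203 measured 27.97 and 33.5 FPKM in cKO, against 21.6 and 26.6 in Ctrl (log2 difference 0.34 ± 0.25 SE). Cd151-202 measured 10.7 and 17.3 FPKM in cKO, against 10.7 and 11.4 in Ctrl, a log2 difference of 0.28 ± 0.30 (SE) that was -0.04 without cKO 2. Cd151-201 measured 0.45 and 2.27 FPKM in cKO, against 1.00 and 0.16 in Ctrl, a log2 difference of 0.52 ± 0.52 (SE) that turned to -0.07 without cKO 2.

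**Figure D3:**
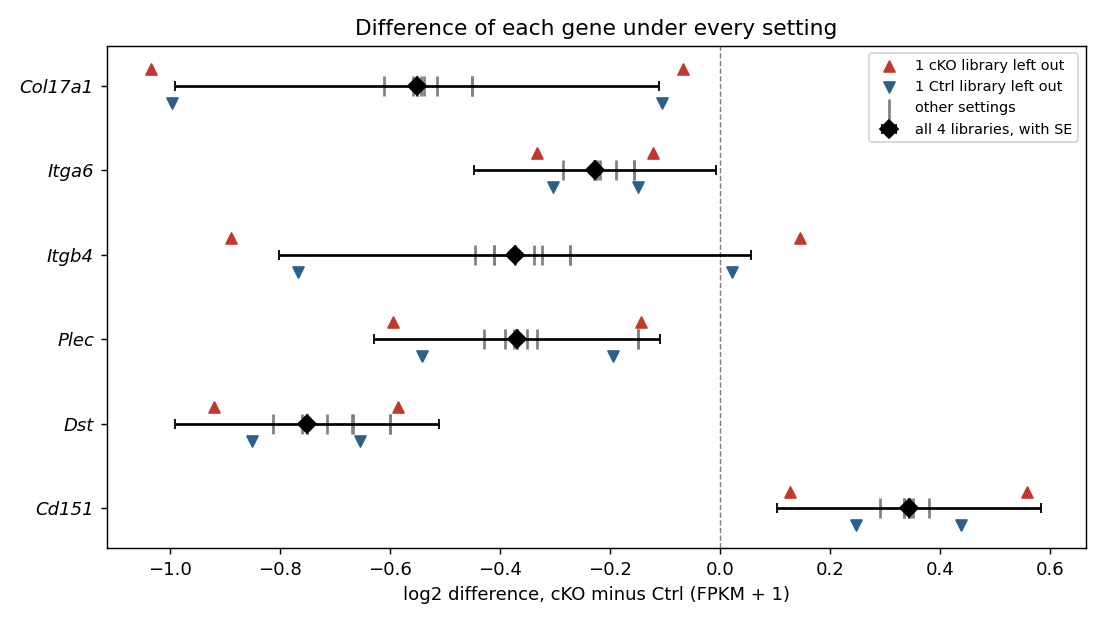
Log2 difference of each gene, cKO minus Ctrl on the log2(FPKM + 1) scale (horizontal axis), with all 4 libraries (black, SE as bars), with 1 cKO library left out (red), with 1 Ctrl library left out (blue) and under the other settings (grey). Dst stays between -0.92 and -0.59 when a library is left out and Cd151 between 0.13 and 0.56, while Itgb4 crosses 0.

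The 6 genes did not share a single pattern over the 4 libraries. After centring each gene's log2(FPKM + 1) values on its own mean, Col17a1 and Itgb4 were closest to each other, at a root mean square distance of 0.099, and 0.0702% of genes were closer to Col17a1. These 2 genes shared the step between the libraries numbered 1 and 2. Itga6 and Plec followed at 0.13, with 12.5% of genes closer to Itga6, while Dst lay at 0.35 to 0.63 from the other members. Among 7124 genes with a mean of at least 10 FPKM, the closest to Dst were Tcrg-C1, at 11.3 and 9.05 FPKM in cKO and 19.9 and 18.0 in Ctrl, and Agps. Tcrg-C1 encodes a constant part of the γδ T cell receptor. The closest were Gm23262 and Ackr4 for Col17a1, Sod1 and Gm26448 for Itgb4, and Whsc1 and Zbtb43 for Itga6. Wbp5 and Grhl2 were closest to Plec and Prr13 and Brms1 to Cd151. With 4 libraries such a likeness is a description only.

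At the transcript level, 28 of the 68 rows reached 1 FPKM in 2 or more libraries and were tested among 27201 transcripts, and 17 rows were listed at 0 in every library. Of the 28 rows, 22 were lower and 6 were higher in cKO, and 56.8% of all transcripts tested were lower. The test called 0 of them, beside 0% of all transcripts, and 3, all of Dst, had an unadjusted p under 0.05. Both cKO libraries lay below both Ctrl libraries for 9 of the 28, 6 of these from Dst, beside 16.2% of all transcripts tested. Both lay above for 1, Cd151-203, beside 14.1%. For shares within a gene, 0 of the 28 were called, beside 0% of 19711 shares tested, and 3 were lower and 4 higher without overlap, beside 15.9% lower and 14.3% higher over all shares. The median size of a share difference among the 28 was 0.16 on the log2 scale.

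Length and exon number differed between Cd151 and the other 5 genes, and both moved with the difference across all genes. The main transcript of Cd151 has 1708 bases and 8 exons. The main transcripts of the other 5 have 4310 bases (Itga6) to 15001 bases (Plec) and 24 exons (Dst) to 54 exons (Col17a1). Over all genes tested, the 2101 with a main transcript of at least 5000 bases had a median difference of -0.13, with 69.9% lower in cKO, and the 4877 under 2000 bases had a median of 0.04. Above 20 exons, 1463 genes had a median of -0.15 with 72.8% lower, and the 7672 genes of 8 exons or fewer had a median of 0.01. With the length trend removed, the differences were -0.60 for Dst, -0.45 for Col17a1, -0.27 for Itgb4, -0.16 for Itga6, -0.15 for Plec and 0.34 for Cd151. All 6 kept their sign.

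The main transcripts of the members were also searched for GGACT, the core of the sequence that the METTL3 and METTL14 complex prefers, on the transcript strand only. Col17a1-201 held 11 matches, or 1.97 per kilobase, a density above that of 86.9% of the transcripts searched. Plec-201 held 13 (0.867 per kilobase), Dst-213 held 10 (1.14), Itgb4-202 held 6 (1.07) and Itga6-201 held 3 (0.696), while Cd151-203 held 0. The median of 13730 main transcripts was 1.03 per kilobase, and 87.5% of them held at least 1 match. Nearly all matches of the members lay in coding sequence. A match within 200 bases of a stop codon was found only in Dst-213, at chr1:34182965-34182969 on the plus strand, shown with the motif in capitals. A match is a stretch of letters and not a measured methylation.
Dst-213 GGACT: gatttccacacaGGACTtaagctgttaga

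Genes that work with the hemidesmosome were compared by counts and medians, beside the median of -0.03 over all genes. Of the 7 genes for laminin chains and collagen VII, the ligands and anchoring fibrils under the hemidesmosome, all 7 were lower in cKO and 0 were called, with a median of -0.30 that became 0.19 without cKO 1. Lama3, the α chain of laminin-332, measured 22.7 and 26.6 FPKM in cKO, against 35.1 and 36.3 in Ctrl (log2 difference -0.52 ± 0.20 SE; limma adjusted p = 0.959). Lamb3, a β chain of laminin, measured 22.1 and 44.0 FPKM in cKO, against 27.4 and 45.3 in Ctrl, and overlapped between the groups. It had the smallest difference of the list, -0.17 ± 0.40 (SE).

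The keratins that the plakins hold were lower too. All 3 basal keratin genes were lower in cKO and 0 were called, with a median of -0.65 (-0.18 without cKO 1). Krt5 measured 500.4 and 967.8 FPKM in cKO, against 897.5 and 1332.0 in Ctrl, and Krt14 had a difference of -0.41 ± 0.55 (SE). Krt15, a keratin of basal and hair follicle cells, measured 330.9 and 417.8 FPKM in cKO, against 515.0 and 738.5 in Ctrl (log2 difference -0.73 ± 0.36 SE). Its cKO values lay below its Ctrl values without overlap, as for 16.6% of all genes tested. With Trp63, the transcription factor of basal cells, all 4 basal markers were lower, with a median of -0.55 (-0.31 without cKO 1). Trp63 measured 76.3 and 76.8 FPKM in cKO, against 99.6 and 108.9 in Ctrl. Whether the lower values of Dst, Col17a1 and Krt15 follow the number of basal cells was not tested.

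The other plakins had values on both sides of 0, and only Macf1 was lower in cKO. Of 4 other plakins in the table, 1 was lower and 3 were at or above 0, with a median of 0.02 (-0.034 with equal column sums and -0.11 without cKO 1) and 0 called, and Eppk1 was not analysed here. Dsp, desmoplakin, the plakin of desmosomes, measured 809.7 and 660.1 FPKM in cKO, against 738.4 and 682.3 in Ctrl. Evpl, envoplakin, had the highest difference at 0.27 ± 0.23 (SE), with 137.4 and 148.1 FPKM in cKO, against 120.7 and 115.0 in Ctrl. Ppl, periplakin, measured 207.8 and 174.4 FPKM in cKO, against 204.0 and 176.9 in Ctrl. Macf1, the closest relative of Dst and like it a giant gene, had the lowest difference, -0.12 ± 0.29 (SE), at 78.9 and 53.8 FPKM in cKO and 83.2 and 60.1 in Ctrl.

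Of the 8 other integrin chains, 5 were lower and 3 higher, with a median of -0.13 and 0 called. Itgb1, the β chain of laminin and collagen receptors outside hemidesmosomes, measured 29.3 and 30.3 FPKM in cKO, against 42.6 and 42.5 in Ctrl, the lowest difference of the list (-0.50 ± 0.19 SE; limma adjusted p = 0.959). The libraries of each genotype were nearly equal. Itgb5 had the highest, 0.30 ± 0.21 (SE), at 51.8 and 59.9 FPKM in cKO and 43.1 and 46.9 in Ctrl. The median of this list moved with the processing: it was 0.01 with the length trend removed or with a filter of 5 FPKM, and 0.05 without cKO 2.

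Of the 8 other tetraspanins, 3 were lower and 5 higher, with a median of 0.08 (-0.14 without cKO 2 and -0.047 with a filter of 5 FPKM) and 0 called. Cd9, a tetraspanin abundant in keratinocytes, measured 280.8 and 274.5 FPKM in cKO, against 328.8 and 289.3 in Ctrl. Cd63, a tetraspanin of lysosomes, measured 56.9 and 60.4 FPKM in cKO, against 48.1 and 55.7 in Ctrl. Tspan15, a partner of the protease ADAM10, had the highest difference, 0.83 ± 0.28 (SE; limma adjusted p = 0.959), at 2.96 and 2.90 FPKM in cKO and 1.68 and 0.83 in Ctrl. Tspan14 had the lowest, at -0.24 ± 0.22 (SE).

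Of 11 regulators of hemidesmosomes and enzymes that shed collagen XVII, 9 were lower and 2 higher, with a median of -0.16 (-0.36 without cKO 1) and 0 called. Rac1, a small GTPase, measured 82.4 and 103.1 FPKM in cKO, against 85.9 and 113.3 in Ctrl. Erbb2ip, whose product ERBIN binds BPAG1 and integrin β4, measured 90.9 and 47.0 FPKM in cKO, against 86.6 and 62.7 in Ctrl. Klhl24, an adaptor for degradation of keratin 14, had the lowest difference, -0.69 ± 0.23 (SE; limma adjusted p = 0.959), at 8.12 and 6.0 FPKM in cKO and 11.7 and 12 in Ctrl. Adam17, a sheddase of collagen XVII, had the highest at 0.07 ± 0.25 (SE).

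**Figure D4:**
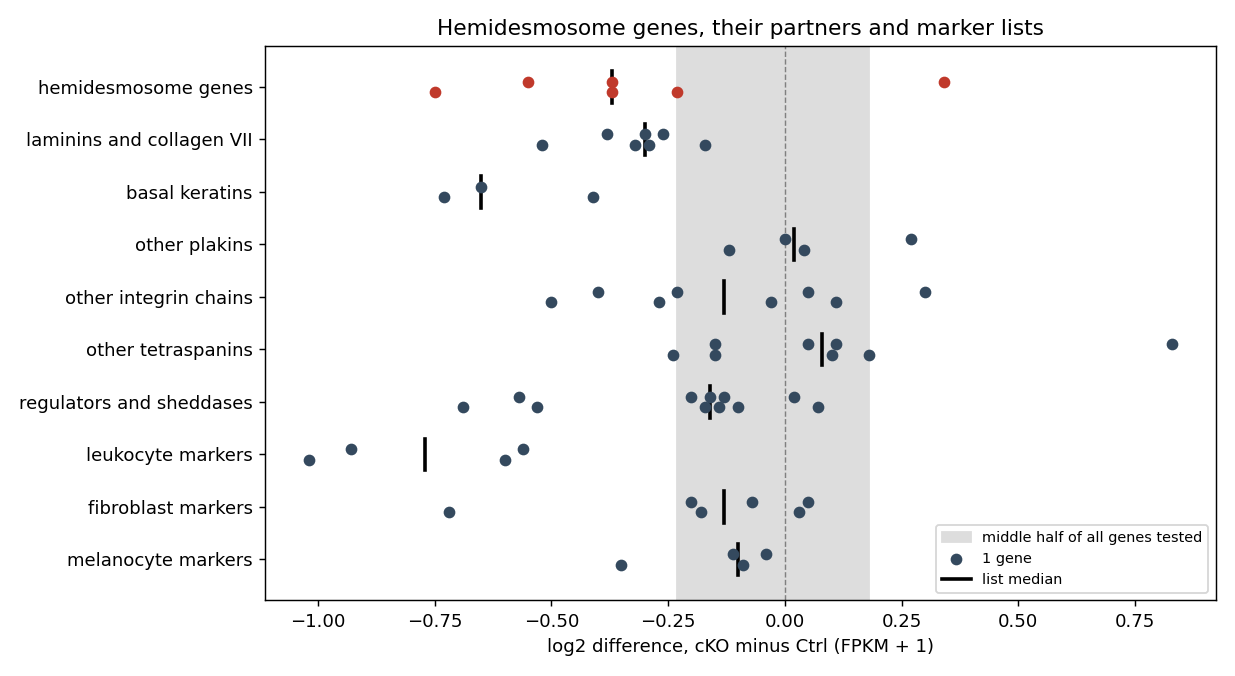
Log2 difference of each tested gene, cKO minus Ctrl on the log2(FPKM + 1) scale (horizontal axis), by list, with list medians as black bars. The shaded band runs from -0.23 to 0.18, the quartiles of all 13817 genes tested. Of the hemidesmosome genes (red) Dst, Col17a1, Plec and Itgb4 lie to the left of the band and Cd151 to its right, and all 4 leukocyte markers lie to the left.

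Markers of other cell types that the preparation could hold were read for the same contrast. All 4 leukocyte markers were lower in cKO without overlap, beside 16.6% of all genes tested, with a median of -0.77, and their summed level was 191.6 and 299.0 FPKM in cKO, against 343.9 and 407.9 in Ctrl. Cd74, a chaperone of antigen presentation, measured 114.2 and 196.5 FPKM in cKO, against 197.3 and 263.2 in Ctrl, and Cd52 measured 41.4 and 74.4 in cKO, against 76.9 and 88.7 in Ctrl. Cd3g, a chain of the T cell receptor complex, measured 18.3 and 21 FPKM in cKO, against 39.0 and 37.8 in Ctrl, and Ptprc had the lowest difference (-1.02 ± 0.46 SE). Like Dst, these markers were lower in cKO. From library 1 to library 2 of each genotype, Dst and Ptprc fell while Cd74 and Cd52 rose. Cd3g rose in cKO and fell in Ctrl. The part of leukocytes in the Dst values was not tested.

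The other marker lists differed less. Fibroblast markers had a median of -0.13 over 6 genes, 4 lower and 2 higher, and summed to 84.6 and 92.0 FPKM in cKO, against 116.1 and 113.8 in Ctrl. Within that list Dcn, decorin of the dermis, was at 34.0 and 40.3 FPKM in cKO, against 55.7 and 68.2 in Ctrl (log2 difference -0.72 ± 0.23 SE), and Col3a1 was at 33.5 and 31.4 in cKO, against 38.5 and 26.0 in Ctrl. Melanocyte markers had a median of -0.10 over 4 genes, all lower, and summed to 360.2 and 388.7 FPKM in cKO, against 465.2 and 407.0 in Ctrl. Schwann cell markers, which bear on the neuronal forms of Dst, had a median of -0.56 over the 2 of 4 that were tested (-0.93 without cKO 1 and -0.20 without cKO 2), and summed to 11.4 and 8.32 FPKM in cKO, against 15.1 and 14.3 in Ctrl. Muscle markers summed to 2.06 and 0.42 FPKM in cKO, against 1.82 and 0.96 in Ctrl, with 1 of 5 tested. None of the 5 endothelial markers was tested, and they summed to 0.90 and 1.82 FPKM in cKO, against 1.24 and 0.79 in Ctrl. Of the suprabasal markers 3 of 4 were tested, 2 lower and 1 higher, with a median of -0.06 that ran from -0.55 without cKO 1 to 0.42 without cKO 2.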

How the data were processed

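RNA from epidermal keratinocytes was measured in 4 libraries. Per the labels' protocols, total RNA was made into NEBNext Ultra libraries for Illumina HiSeq, with either poly(A) selection or ribosomal RNA removal. The submitters' processing notes list fastp, HISAT2, HTSeq and GRCm38 without versions. The authors deposited 110295 values per library, 1 per transcript, here taken as FPKM, and the sources used here do not give the step that made them. The header names no unit, and FPKM was inferred because value times transcript length summed to 1015550 to 1021998 per kilobase. The Ctrl columns are headed WT and were matched by group and number.

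Low values were whole multiples of 1 fragment in 94.4% to 95.1% of cases, within 0.2 fragments, which gave the implied depths. Values per transcript cannot be turned back into counts, so no count test was run. Of the rows, 98.13% were in GENCODE M21. A total of 162 symbols turned into dates were looked up by transcript ID.

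FPKM were summed per symbol. limma 3.58.1 (R 4.3.3) with a mean-variance trend was run on log2(FPKM + 1), which understates changes of low genes, for genes, transcripts and transcript shares, with genotype as the only term. Named were the 6 members and Mettl14, the 3 most abundant transcripts of each member, start classes of Dst and Plec, and from each list the 2 most abundant genes and the highest and lowest differences; some others, such as Itgb4-205, ENSMUST00000182513, Trp63 and Cd3g, were named after their values were seen. The values of 1 gene under this rule are not reported here. Members and lists were chosen with earlier results of these data known. Alternatives covered scaling, the pseudocount, filters, transcript length, rows summed, replicate number and leaving out each library. The fit was tested on simulated data in which 200 genes were changed by a known fold. It called 0% of them at 2-fold, 74% at 4-fold and 92% at 8-fold. All 6 member differences were smaller than 2-fold. Python 3.11.15, pandas 2.3.3, numpy 2.4.6 and matplotlib 3.10.9 were used.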

Additional observations from a re-analysis of the deposited data

How the results depend on the processing

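The labels do not say that equal replicate numbers pair the libraries, and with 2 pairs the numbers cannot be shown to do so, although deviations of same-numbered libraries correlated at 0.722 over 13817 genes. Between same-numbered libraries the difference was -0.68 and -0.82 for Dst, -0.59 and -0.51 for Col17a1 and -0.50 and -0.25 for Itgb4. It was -0.42 and -0.32 for Plec, -0.26 and -0.20 for Itga6 and 0.22 and 0.46 for Cd151. Of the 6 genes, 5 were lower in cKO within both numbers, beside 37.6% of all genes tested. With the replicate number as a block, limma called 900 of the 13817 genes (626 higher, 274 lower), and 849 with the length trend removed as well. The block fit has less left to estimate a gene's spread from than the main fit. Its p-values thus lean more on the spread of other genes. The block called Dst (-0.75, adjusted p = 0.00884; -0.60, adjusted p = 0.0202 with the length trend removed) and Col17a1 (-0.55, adjusted p = 0.0243; -0.45, adjusted p = 0.0463), called none of the other members, and called 0 transcripts and 0 shares. With all 4 libraries, directions changed for Plec-204 (-0.03 with equal column sums), for the medians of other plakins (-0.034 with equal column sums) and other tetraspanins (-0.047 with a filter of 5 FPKM), and for other integrin chains. The median of the other integrin chains was -0.10 with median-ratio scaling, -0.19 with equal column sums, 0.011 with a filter of 5 FPKM, 0.008 with the length trend removed, with or without the replicate block, and -0.17 with fragments summed.

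With 1 library left out, limma called 9 to 71 genes, 20 to 87 transcripts and 2 to 14 shares. This takes a lone library to have the spread of the other genotype. The member median ran from -0.60 to -0.094. Medians ran from -0.68 to 0.19 for laminins and collagen VII, -0.94 to -0.18 for basal keratins, -0.16 to 0.047 for other integrin chains, -0.14 to 0.26 for other tetraspanins, -0.36 to -0.068 for regulators, -0.33 to -0.018 for fibroblast and -0.20 to -0.048 for melanocyte markers. They ran from -0.11 to 0.17 for other plakins, -0.55 to 0.42 for suprabasal and -0.75 to 0.47 for muscle markers, of which 1 gene was tested. Differences that changed sign ran from -0.89 to 0.14 for Itgb4, -0.91 to 0.063 for Col17a1-201, -0.46 to 0.21 for Itga6-207, -0.64 to 0.23 for Itgb4-202, -0.77 to 0.009 for Itgb4-209, -0.14 to 0.18 for Plec-204, -0.043 to 0.60 for Cd151-202 and -0.071 to 1.10 for Cd151-201. Shares that changed sign ran from -0.098 to 0.11 for Itga6-201, -0.23 to 0.029 for Plec-201, -0.043 to 0.011 for Dst-217 and -0.096 to 0.083 for Cd151-203. The causes were not tested.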
